A study of Mus musculus with 8 samples.

Results

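The NF-kB transcription factors and their inhibitors were examined in mouse acute myeloid leukemia (AML) cells driven by the MLL-AF9 fusion gene. The set holds 10 genes, namely the factor genes Rela, Rel, Relb, Nfkb1 and Nfkb2 and the inhibitor genes Nfkbia, Nfkbib, Nfkbie, Nfkbiz and Tnfaip3. They were taken by name from a table of read counts with 12823 gene rows, and all 10 had a row and passed the filter on low values. RNA was sequenced from GFP+ leukemia cells of bone marrow, in 4 libraries of new AML and 4 libraries of aggressive AML. New AML cells came from mouse bone marrow progenitors that had been transduced with a retroviral vector for MLL-AF9 and GFP and grown in sublethally irradiated wild-type C57BL/6 recipients. Aggressive AML cells carried the same fusion and reporter. Per the paper, they descend from that leukemia through 5 rounds of transplantation, for which the hosts were not irradiated. Irradiation of the host, the number of transplantations and the group therefore cannot be told apart. The groups also differed in the expression of Y-linked genes, given below, and this difference cannot be told apart from the group either. The mice of the study were young adults, and the paper gives male mice for this sequencing. Whether the 4 replicates of a group trace back to separate transductions was not stated, so the p-values measure only the spread between these libraries.

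In resting cells, the dimers of the NF-kB family are held in the cytoplasm by IkB proteins. In the canonical pathway, signals from Toll-like, interleukin-1 and tumor necrosis factor receptors activate the IKK kinase complex, which marks IkB for degradation and releases dimers that contain p65 or c-Rel. In the alternative pathway, the kinase NIK drives the processing of p100 to p52, the partner of RelB. Several inhibitor genes are themselves induced by NF-kB, which closes a negative feedback loop. The pathway is known in myeloid leukemia for its activity in leukemia stem cells.

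The bases just before a transcription start of 5 members are shown because the kappa-B consensus, the 10-base motif that NF-kB dimers recognise, was found there. Promoter windows, running from 250 bases before to 50 bases after a RefSeq start on GRCm38.p6, were given for 7 of the 10 members. The motif, searched on both strands, lay in at least 1 window of 5 of these 7 genes (71.4%), against 545 of 9315 tested genes with a window (5.85%). Among all 27025 genes with a window, 1388 held it (5.14%). The sequences below are the 150 bases before the start, 5′ to 3′ on the strand of the gene, with motif matches in capitals, and a run longer than 10 capitals holds overlapping matches.
Nfkbia: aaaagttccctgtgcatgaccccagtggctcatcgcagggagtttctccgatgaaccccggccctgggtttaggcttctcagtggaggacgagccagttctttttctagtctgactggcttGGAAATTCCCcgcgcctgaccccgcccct
Nfkb2: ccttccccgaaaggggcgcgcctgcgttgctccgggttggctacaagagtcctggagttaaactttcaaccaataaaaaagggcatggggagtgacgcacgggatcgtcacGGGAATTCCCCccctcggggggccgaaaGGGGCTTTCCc
Nfkbie: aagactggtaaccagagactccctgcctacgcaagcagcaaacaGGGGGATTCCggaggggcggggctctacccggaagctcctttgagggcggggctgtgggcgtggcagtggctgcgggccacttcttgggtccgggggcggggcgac
Rel: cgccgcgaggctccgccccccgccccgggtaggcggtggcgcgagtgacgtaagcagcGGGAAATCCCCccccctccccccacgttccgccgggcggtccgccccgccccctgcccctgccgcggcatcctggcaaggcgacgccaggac
Tnfaip3: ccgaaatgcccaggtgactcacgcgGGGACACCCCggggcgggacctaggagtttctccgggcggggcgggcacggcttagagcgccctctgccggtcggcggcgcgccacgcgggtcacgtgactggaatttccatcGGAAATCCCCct
These stretches lie at chr12:55492648-55492797 on the minus strand for Nfkbia, chr19:46304587-46304736 on the plus strand for Nfkb2, chr17:45555550-45555699 on the plus strand for Nfkbie, chr11:23770970-23771119 on the minus strand for Rel and chr10:19015411-19015560 on the minus strand for Tnfaip3. The match of Nfkbia began 29 bases before its start and that of Nfkbie 106 bases before. Nfkb2 had 3 windows, of which the first is shown, with overlapping matches 39 and 38 bases and another match 11 bases before its start. The coordinates of the gene, given below, begin further upstream, at chr19:46300994. Its other windows held matches 236 bases before and 10 bases after the start of the second and 225 bases before that of the third. The last of these is the match 10 bases after the start of the second window, at chr19:46305705-46305714, since the windows overlap. The overlapping matches of Rel began 92 and 91 bases before the start, and those of Tnfaip3, which are separate, 125 and 12 bases before. No match was found in the windows of Rela and Nfkbib, nor in another window of Tnfaip3, at chr10:19011914-19012213. Nfkb1, Relb and Nfkbiz were named only. A match describes letters in a window, and binding was not measured.

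Total counts lay between 7805544 and 9697777 per library, so that a count of 3 corresponded to 0.308 to 0.389 CPM (the read count of a gene scaled to the total of its library, with TMM factors). All 12 genes listed as markers of MLL-AF9 myeloid leukemia, among them Hoxa9, Meis1 and Mpo, were present in both groups. Of these, 3 were higher and 4 lower in aggressive AML, beside 8.15% higher and 10.2% lower among all tested genes. Those lower were Csf1r (log2 fold change -1.70), Itgam (-0.61), Hoxa10 (-0.59) and Spi1 (-0.25). Those higher were Kit (0.65), Cd33 (0.51) and Meis1 (0.45). A list of 4 Y-linked genes summed to between 2315 and 2574 counts in each new AML library. In each aggressive AML library the sum was 0, although the paper describes 1 line of descent. Other programs moved with the groups as well, beside the 10.2% of all tested genes called lower. Of 10 neutrophil markers, 7 were lower in aggressive AML, and their summed level ran from 322 to 486 CPM in new AML and from 169 to 220.0 CPM in aggressive AML. Of 5 tested macrophage markers, 2 were lower, and C1qa, C1qb, Siglec1 and Timd4 had no row. The macrophage sums overlapped, at 84.2 to 150.1 CPM in new AML and 56.4 to 91.4 CPM in aggressive AML. Of 7 tested erythroid markers 2 were lower, and of 2 tested B cell markers 1 was lower. Of 2 tested T cell markers 1 was higher, as was the 1 tested NK cell marker, beside 8.15% of all tested genes. The other listed T and NK cell markers had no row. Of 23 interferon response genes, 21 were lower, and their sum was 814 to 990.4 CPM in new AML replicates 1, 2 and 4, 1418 CPM in new AML replicate 3 and 498 to 573 CPM in aggressive AML. The part of these differences in the NF-kB values below was not tested. In cells measured in bulk, fewer cells of a type and less RNA per cell cannot be told apart.

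The comparison of aggressive with new AML asked whether the expression of the NF-kB factors and of their inhibitors differed between the groups. Nfkbia and Nfkbiz rose and Nfkb2 fell in aggressive AML, and the other 7 members did not pass the test. Thus 3 of 10 members were called at an adjusted p under 0.05 by the quasi-likelihood test of edgeR, against 18.4% of the 12494 genes tested. The 2 members called higher stand against 8.15% of all tested genes called higher, and the 1 called lower against 10.2% called lower. In 5 of the 10 members, the groups did not overlap, against 21.8% of all tested genes. An unadjusted p under 0.05 was reached by 6 members, against 32.6% of all tested genes. The fold change lay below 0 on the log2 scale in 7 members, and the median over the 10 was -0.16, beside 0.00044 over all tested genes. Differences are given below as log2 fold changes, aggressive AML over new AML, with the standard error (SE), and means are given ± SD over the 4 libraries of a group (n = 4).

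**Figure D1:**
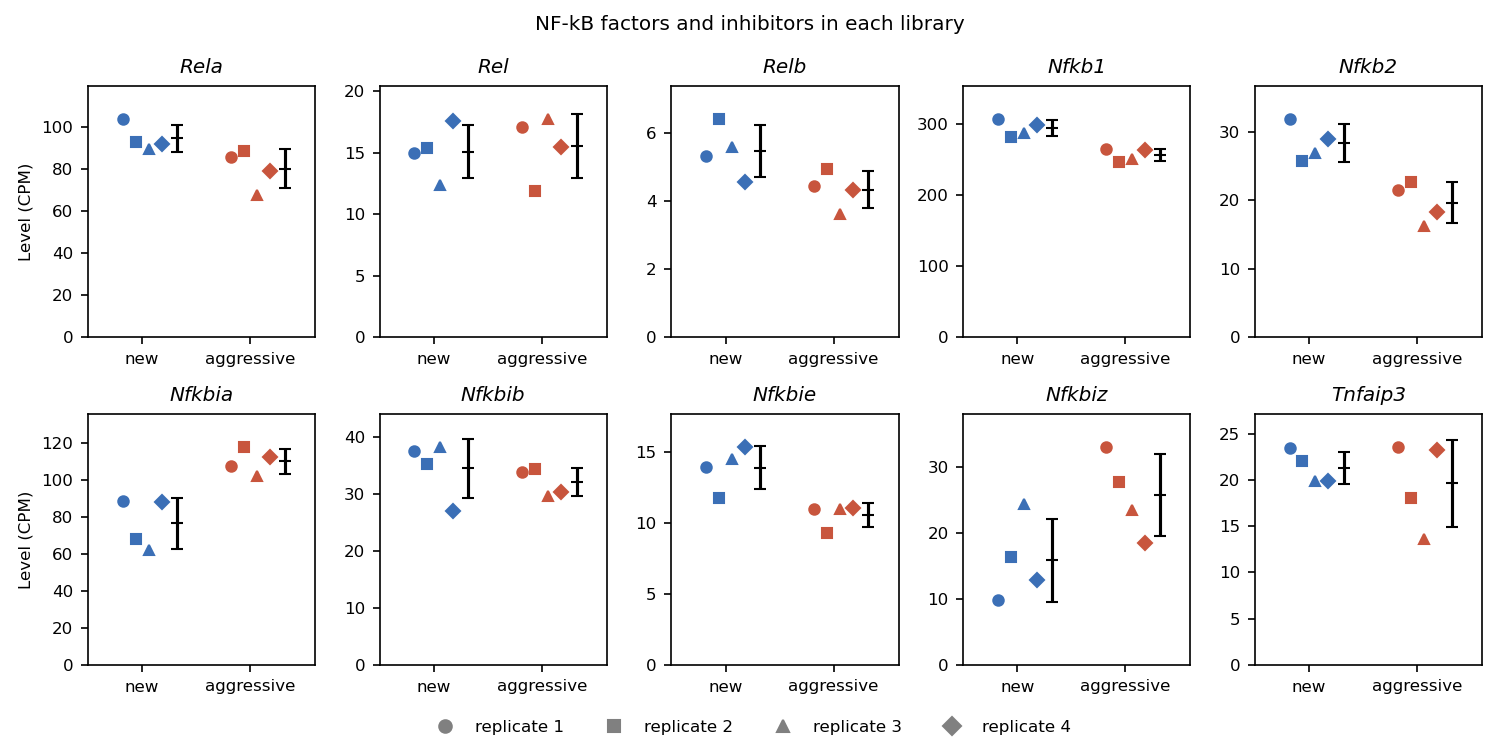
Level of each of the 10 genes in CPM (vertical axes, each starting at 0) in the 4 new AML and 4 aggressive AML libraries, with 1 point per library and a bar at the group mean with its SD. Nfkbia lies between 62.0 and 88.8 CPM in new AML and between 102 and 118 CPM in aggressive AML, while the groups overlap in Nfkbiz.

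Nfkbia encodes IkBalpha, the classical inhibitor that holds dimers containing p65 in the cytoplasm (chr12:55489409-55492647, minus strand). Its level was 88.8, 68.0, 62.0 and 88.2 CPM in new AML replicates 1 to 4 and 108, 118, 102 and 113 CPM in aggressive AML replicates 1 to 4. All 4 aggressive AML libraries were higher than every new AML library. The mean was 76.8 ± 13.8 CPM in new AML and reached 110.2 ± 6.82 CPM in aggressive AML. Nfkbia thus rose by 0.52 on the log2 scale (SE 0.11, adjusted p = 0.00437). On the linear scale the fitted level was 1.44 times as high. Its 95% interval on the log2 scale ran from 0.28 to 0.76.

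Nfkbiz encodes IkBzeta, an IkB protein of the nucleus that acts on the transcription of selected NF-kB targets (chr16:55811375-55838954, minus strand). Its level was 9.86, 16.4, 24.4 and 12.8 CPM in the new AML libraries and 33.1, 27.8, 23.5 and 18.6 CPM in the aggressive AML libraries. New AML replicate 3, the library with the highest interferon response sum, lay above aggressive AML replicates 3 and 4. With means of 15.9 ± 6.30 CPM and 25.7 ± 6.21 CPM, Nfkbiz rose by 0.70 on the log2 scale (SE 0.23, adjusted p = 0.0495). Nfkbiz had the largest spread of the 10 members in new AML, with an SD of 39.7% of the mean, beside a median of 8.80% over tested genes with a mean of at least 10 CPM. The adjusted p lay at the threshold. Leaving out new AML replicate 1, 2 or 4 gave 0.136, 0.0961 and 0.135, leaving out aggressive AML replicate 1 or 2 gave 0.151 and 0.104, and leaving out new AML replicate 3 gave 0.00501 with a log2 fold change of 0.99.

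Nfkbib encodes IkBbeta, a further cytoplasmic inhibitor (chr7:28758251-28766644, minus strand). Its level was 37.5, 35.2, 38.3 and 27.0 CPM in new AML and 33.9, 34.4, 29.7 and 30.3 CPM in aggressive AML, and the groups overlapped. The log2 fold change was -0.11 (SE 0.12, adjusted p = 0.587), with an interval from -0.36 to 0.15. Its exons overlap those of Sirt2 on the opposite strand, and the strand setting of the counting was not stated, so that reads of the pair may be mixed. Sirt2 itself had a log2 fold change of -0.07.

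Nfkbie encodes IkBepsilon, which binds dimers containing p65 and c-Rel (chr17:45555700-45563169, plus strand). It had 14.0, 11.8, 14.5 and 15.4 CPM in new AML and 11.0, 9.31, 11.0 and 11.0 CPM in aggressive AML. The groups did not overlap, and every aggressive AML library lay under every new AML library, but the log2 fold change of -0.39 (SE 0.15) did not pass the adjustment (adjusted p = 0.0769). The sign was thus opposite to that of Nfkbia, whose protein has a like function. The ratio of Nfkbia to Nfkbie per kilobase went from 8.54 ± 1.37 (new AML) to 16.2 ± 2.34 (aggressive AML), with no overlap.

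Tnfaip3 encodes A20, a ubiquitin-editing enzyme that ends signaling from tumor necrosis factor and Toll-like receptors (chr10:19000910-19015410, minus strand). New AML ranged from 19.8 to 23.4 CPM, and the aggressive AML libraries had 23.6, 18.03, 13.6 and 23.2 CPM. The lowest value was that of aggressive AML replicate 3, and the groups overlapped. The log2 fold change was -0.11 (SE 0.16, adjusted p = 0.661), and without that library it was 0.03.

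Nfkb2 encodes p100, the precursor of p52 in the alternative pathway (chr19:46300994-46312400, plus strand). Its level was 31.9, 25.7, 26.9 and 29.0 CPM in new AML and 21.4, 22.7, 16.2 and 18.3 CPM in aggressive AML. All 4 aggressive AML libraries lay under every new AML library. With means of 28.4 ± 2.74 CPM and 19.7 ± 2.97 CPM, the log2 difference was -0.53 (95% interval -0.80 to -0.25, SE 0.13, adjusted p = 0.0108). Exons of Psd overlap Nfkb2 on the opposite strand. Psd was scarce, at 4.75 ± 0.718 CPM in new AML and 2.87 ± 0.402 CPM in aggressive AML, and it also fell (log2 fold change -0.73, adjusted p = 0.0474), so that reads of the pair may be mixed.

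Nfkb1 encodes p105, the precursor of p50 (chr3:135584655-135691969, minus strand). It was the member with the most reads, from 1939 to 2997 per library. Its level was 308, 282, 288 and 299 CPM in new AML and 265, 247, 251 and 263 CPM in aggressive AML. The groups did not overlap, and the SD was 3.85% of the mean in new AML and 3.45% in aggressive AML, the smallest of the 10 members in both. The log2 fold change of -0.20 (SE 0.07, 95% interval -0.34 to -0.05) had an adjusted p of 0.0518, just over the threshold. It passed with 3 alternatives, at 0.0440 when libraries were scaled by their totals alone, 0.0238 with DESeq2 and 0.0409 with limma.

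Rela encodes p65, the transactivating partner of p50 (chr19:5637442-5648134, plus strand). It had 104, 93.1, 89.7 and 92.0 CPM in new AML and 85.7, 88.6, 67.7 and 79.1 CPM in aggressive AML. The groups did not overlap, with aggressive AML replicate 2 only just under new AML replicate 3. Its log2 difference of -0.24 (SE 0.09) was not called (adjusted p = 0.0896), and without aggressive AML replicate 3 it was -0.16 (adjusted p = 0.198).

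Rel, which encodes c-Rel (chr11:23736847-23770969, minus strand), had 14.99, 15.3, 12.4 and 17.6 CPM in new AML and 17.1, 11.9, 17.8 and 15.5 CPM in aggressive AML. High and low values were mixed between the groups, the log2 fold change was 0.04 (SE 0.16, adjusted p = 0.873) and its 95% interval ran from -0.29 to 0.38. Relb, which encodes RelB, the partner of p52 (chr7:19606217-19629438, minus strand), had 5.34, 6.42, 5.58 and 4.57 CPM in new AML and 4.46, 4.95, 3.63 and 4.33 CPM in aggressive AML. It rested on only 28 to 54 reads per library. Its log2 fold change of -0.33 (SE 0.22, adjusted p = 0.307) had an interval from -0.79 to 0.13, which holds both 0 and the difference seen in Nfkb2.

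**Figure D2:**
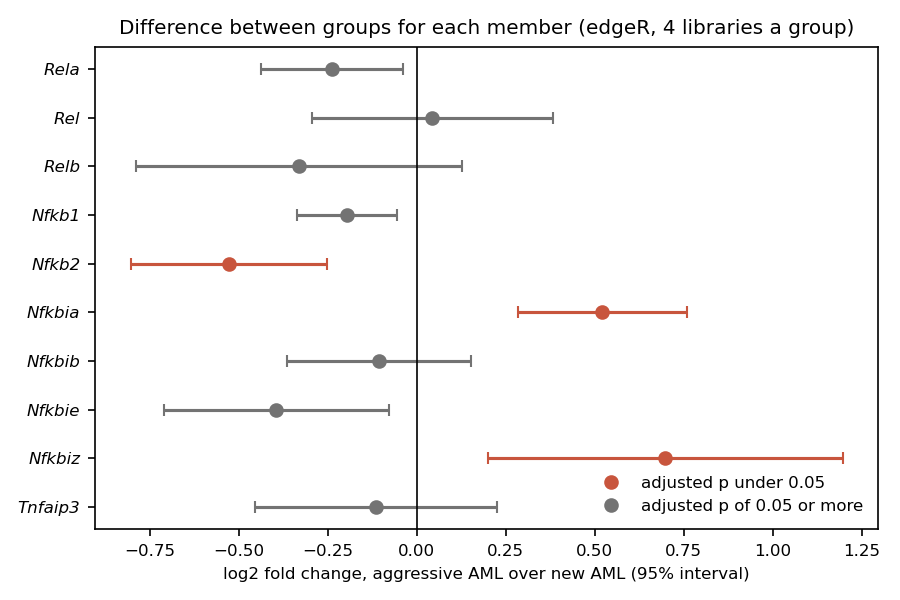
Log2 fold change of each of the 10 genes, aggressive AML over new AML (horizontal axis), with its 95% interval from the edgeR fit to 4 libraries a group. Nfkbia (0.52) and Nfkbiz (0.70) lie to the right of 0 and Nfkb2 (-0.53) to the left with an adjusted p under 0.05, and the intervals of Nfkb1, Rela and Nfkbie also lie below 0 before adjustment.

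Aggressive AML replicate 3 held the lowest value of its group in 6 of the 10 members, namely Nfkb2, Rela, Relb, Nfkbia, Nfkbib and Tnfaip3. Among all tested genes, that library was the lowest of its group in 33.02%. The calls of Nfkbia (log2 fold change 0.56, adjusted p = 0.00352), Nfkb2 (-0.44, adjusted p = 0.0210) and Nfkbiz (0.74, adjusted p = 0.0498) remained without it.

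Levels of different genes were compared as CPM per kilobase, with the length of the longest principal transcript. In new AML, Nfkb1 was the most abundant member (71.5 ± 2.75 CPM per kilobase), followed by Nfkbia (48.6 ± 8.73), Rela (34.9 ± 2.34), Nfkbib (16.7 ± 2.51) and Nfkb2 (9.03 ± 0.871). Nfkbie (5.71 ± 0.632), Tnfaip3 (4.81 ± 0.394), Nfkbiz (3.86 ± 1.53), Relb (2.48 ± 0.345) and Rel (2.02 ± 0.287) formed the lower end, and there the ranges of neighbours overlapped. In aggressive AML, Nfkbia (69.9 ± 4.32 CPM per kilobase, 64.8 to 75.0) came before Nfkb1 (62.4 ± 2.15, 60.1 to 64.5), and Rela (29.6 ± 3.42) and Nfkbib (15.6 ± 1.17) again followed. Nfkb2 (6.27 ± 0.945 CPM per kilobase) and Nfkbiz (6.25 ± 1.51) were then level, Tnfaip3 (4.44 ± 1.07) and Nfkbie (4.35 ± 0.349) came next with overlapping ranges, and so did Rel (2.08 ± 0.351) and Relb (1.96 ± 0.247). The order depended in part on the length used. Per kilobase of all its exons joined, Nfkb1 stood at 24.4 in new AML and 21.3 in aggressive AML, under Rela (30.8 and 26.1) and Nfkbia (47.7 and 68.5). On that scale Rel (2.02) lay above Relb (1.41) and Nfkbiz (3.16) above Tnfaip3 (2.94) in new AML, and Nfkbiz (5.13) lay above Nfkb2 (4.29) in aggressive AML.

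**Figure D3:**
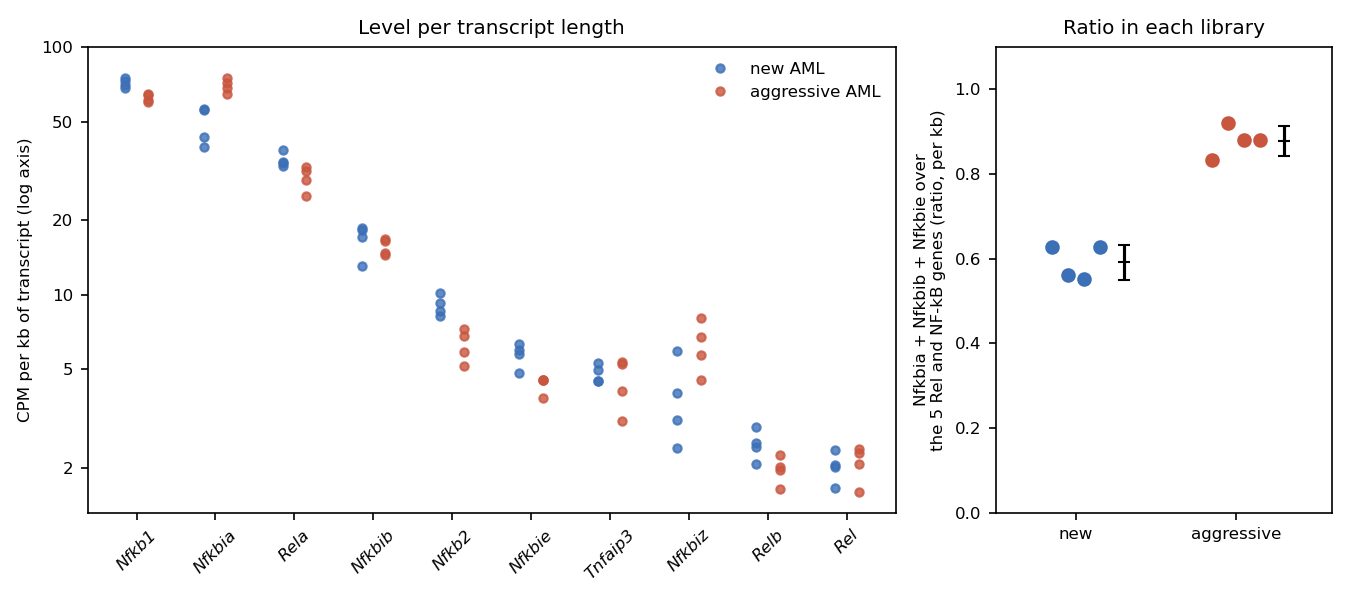
Left, level of each member in CPM per kilobase of transcript (logarithmic vertical axis), as 1 point per library in new AML and aggressive AML; right, summed level of the 3 cytoplasmic IkB genes divided by that of the 5 factor genes in each library. The ratio lies between 0.552 and 0.628 in new AML and between 0.833 and 0.920 in aggressive AML.

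The balance of inhibitor and factor transcripts was then described from the levels per kilobase, without a test. The 5 factor genes summed to 119.9 ± 5.55 CPM per kilobase in new AML and 102.2 ± 5.08 in aggressive AML. The 3 genes of cytoplasmic inhibitors, Nfkbia, Nfkbib and Nfkbie, summed to 71.1 ± 7.96 and 89.8 ± 4.83 CPM per kilobase. Only Nfkbia had a higher mean in aggressive AML (48.6 in new AML and 69.9 in aggressive AML). The means of Nfkbib (16.7 and 15.6) and Nfkbie (5.71 and 4.35) were lower there, so the rise of the sum was that of Nfkbia. The ratio of inhibitor to factor transcripts was 0.592 ± 0.0415 in new AML (0.552 to 0.628) and 0.878 ± 0.0356 in aggressive AML (0.833 to 0.920), and the groups did not overlap. With the joined exons as length, the ratio was 1.05 ± 0.0731 and 1.58 ± 0.0648, so its value but not its direction depended on the length. Nfkbia made up 68.1% ± 5.40 of the inhibitor sum in new AML and 77.8% ± 1.03 in aggressive AML. The share of Nfkb2 in the factor sum was 7.52% ± 0.391 and 6.11% ± 0.704, again with no overlap. Those of Nfkb1 (59.6% and 61.1%) and Rela (29.1% and 28.8%) overlapped between groups. Per kilobase of joined exons, the share of Nfkb1 was 37.6% and 38.9% and that of Rela 47.5% in both groups, so that Rela came first, while the share of Nfkb2 (9.53% and 7.79%) again did not overlap. Transcript ratios do not give the amounts of protein, which were not measured.

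Upstream of the factors, receptors and ligands of the pathway were mostly scarce or without a row. Of 24 listed genes, 10 were tested, 0 were higher and 2 were lower, a share near the 18.4% called among all tested genes, with a median log2 fold change of -0.10. The genes of Cd40, Il1r1, Il1a and Il1b had no row. Tlr9, the Toll-like receptor for CpG DNA, had 21.6, 22.8, 20.4 and 25.6 CPM in new AML and 11.0, 8.72, 10.4 and 13.3 CPM in aggressive AML. The groups were well apart, and its log2 fold change was -1.06 (SE 0.15, adjusted p = 0.000172). Tnfrsf1a, the main receptor for tumor necrosis factor, fell from 119.0 ± 9.03 CPM to 87.1 ± 14.9 CPM (log2 fold change -0.45, adjusted p = 0.00998). Ltbr, a receptor that feeds the alternative pathway, was not called (-0.07, adjusted p = 0.626), nor were Tnfrsf1b (-0.22) and Il1rap (0.29).

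Among 28 tested kinases and adaptors, 1 was higher and 3 were lower, a share under the 18.4% called among all tested genes, with a median log2 fold change of -0.02. Map3k14, which encodes NIK, the kinase that drives p100 processing, had 29.8, 29.3, 26.9 and 28.1 CPM in new AML and 21.7, 24.0, 17.8 and 19.5 CPM in aggressive AML. The groups did not overlap, and the gene fell by 0.46 on the log2 scale (adjusted p = 0.0141), as did Nfkb2, whose product it acts on, by 0.53. Malt1, the paracaspase of the CARD-BCL10-MALT1 complex, fell from 86.4 ± 3.52 CPM to 69.7 ± 2.70 CPM (log2 fold change -0.31, adjusted p = 0.0113). Rnf31, the catalytic subunit of the linear ubiquitin ligase, fell from 50.2 ± 4.01 CPM to 36.0 ± 7.73 CPM (-0.48, adjusted p = 0.0248), with its lowest value, 25.1 CPM, in aggressive AML replicate 3. Traf6, the ubiquitin ligase downstream of Toll-like receptors, rose from 66.3 ± 5.83 CPM to 84.2 ± 14.9 CPM (0.34, adjusted p = 0.0483). The groups overlapped, since new AML replicate 1 (74.5 CPM) lay above aggressive AML replicates 2 (72.8 CPM) and 4 (74.1 CPM). Its highest value, 105 CPM, was in aggressive AML replicate 3. The subunits of the IKK complex itself, Chuk (-0.07), Ikbkb (0.06) and Ikbkg (0.10), were not called, nor were the abundant adaptor genes Card9 (-0.02), Tab2 (-0.18) and Rbck1 (-0.07). Without new AML replicate 2, 2 genes of this list were called in place of 4.

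Of 14 other tested brakes of the pathway and nuclear IkB genes, 2 were higher and 1 was lower, a share near the 18.4% called among all tested genes, with a median log2 fold change of -0.11. Bcl3, a nuclear IkB protein that binds p50 and p52, had 13.0, 9.51, 13.3 and 10.03 CPM in new AML and 5.66, 10.1, 4.93 and 5.24 CPM in aggressive AML. Aggressive AML replicate 2 lay within the new AML range, and the log2 fold change was -0.82 (SE 0.23, adjusted p = 0.0231). It was thus opposite in sign to Nfkbiz, the other nuclear IkB gene called, while Nfkbid was not called (-0.09). Otud7b, a deubiquitinase that acts on TRAF3 in the alternative pathway, rose from 28.3 ± 1.94 CPM to 35.8 ± 3.35 CPM (0.34, adjusted p = 0.0404). Rnf11, a partner of A20, rose from 27.5 ± 2.22 CPM to 34.6 ± 2.80 CPM (0.33, adjusted p = 0.0423). Tax1bp1 (0.24), Itch (-0.16) and Cyld (-0.18) were not called. The count of 3 called genes rests on the full set of libraries. It was 0 without new AML replicate 1 or 3, and 1 without new AML replicate 4, aggressive AML replicate 1 or aggressive AML replicate 3.

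Genes known as targets of NF-kB moved in both directions. Of 35 listed, 24 were tested, of which 2 were higher, 5 were lower and 17 were not called, beside 8.15% higher and 10.2% lower among all tested genes. The median log2 fold change was -0.32. The list has more members below 0 (16) than above (8). A motif match was found in the windows of 7 of 17 of the listed targets with a window (41.2%). Mmp9, a matrix protease of mature myeloid cells, had 5.54, 9.04, 3.68 and 8.58 CPM in new AML and 0.602, 0.471, 0.130 and 1.14 CPM in aggressive AML. It fell the most of the list (log2 fold change -3.45, SE 0.44, adjusted p = 7.10e-05), beside the drop of 7 of 10 neutrophil markers given above. Its value in aggressive AML replicate 3 lay under the level of 3 counts in that library (0.389 CPM), so the size of the drop is uncertain. Ccr7, a chemokine receptor, fell from 2.36 ± 0.553 CPM to 0.667 ± 0.327 CPM (-1.82, adjusted p = 0.00562). It was also near the floor, at 0.241 CPM in aggressive AML replicate 1, where 3 counts correspond to 0.361 CPM. Irf1, which interferon also induces, fell from 83.0 ± 21.1 CPM to 57.4 ± 8.66 CPM (-0.53, adjusted p = 0.0229), and its highest value, 114 CPM, was in new AML replicate 3, the library with the highest interferon response sum. Tnfaip2 (-0.41, adjusted p = 0.0229) and Xiap, an inhibitor of caspases (-0.31, adjusted p = 0.0342), also fell. Cxcl2, a chemokine that attracts neutrophils, rose from 1.20 ± 0.547 CPM to 3.57 ± 1.69 CPM (1.57, adjusted p = 0.0122). It was scarce, at 0.821 to 2.01 CPM in new AML. Ier3, an immediate early gene, rose from 12.4 ± 3.65 CPM to 19.3 ± 3.84 CPM (0.63, adjusted p = 0.0463). The groups overlapped in Ier3, since aggressive AML replicate 4 (13.7 CPM) lay within the new AML range. Myc had 216, 219, 198 and 185 CPM in new AML and 131, 176, 51.6 and 174 CPM in aggressive AML. The groups did not overlap, but its log2 fold change of -0.62 (SE 0.24) was not called (adjusted p = 0.0936), and neither were those of Cd44 (-0.04) and Cflar (-0.23). Without new AML replicate 4, 4 targets were called in place of 7.

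**Figure D4:**
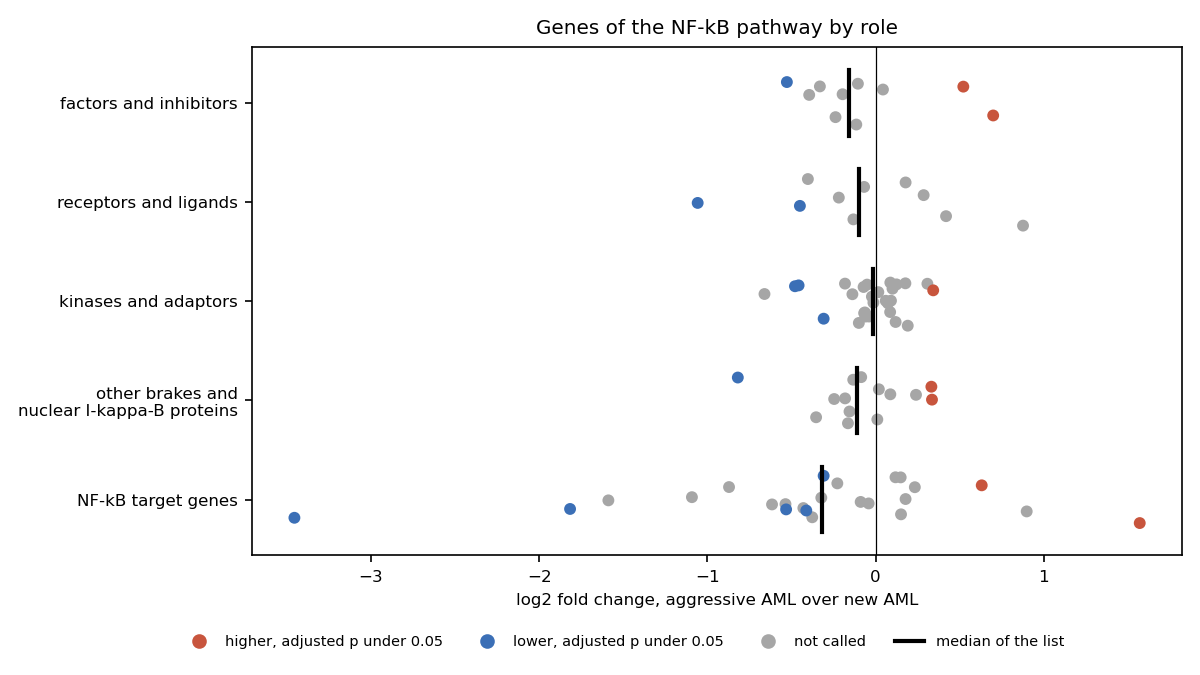
Log2 fold change, aggressive AML over new AML (horizontal axis), of the 10 factors and inhibitors and of the tested genes of 4 pathway lists, with 1 point per gene, colored by the call of the edgeR test, and a bar at the median of each list. The medians lie between -0.32 and -0.02, and called genes lie on both sides of 0 in every list but that of receptors and ligands, where both called genes are lower.

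For each called member, the 2 tested genes with the most similar course over the 8 libraries were found by the root mean square difference of centred log2(CPM + 1) values. These were Bhlhb9 (0.0794) and Gm38708 (0.116) for Nfkbia, Fancc (0.0604) and Stx2 (0.0639) for Nfkb2, and Hist1h2bk (0.188) and Zfp335os (0.205) for Nfkbiz. No member of the pathway lists was among them. These 4 lists hold only 10, 28, 14 and 24 of the 12494 tested genes, so their absence is no result about the pathway.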

How the data were processed

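RNA-seq counts of GFP+ MLL-AF9 cells were available for 4 new AML and 4 aggressive AML libraries. The authors prepared polyadenylated RNA, aligned paired reads to mm10 with HISAT2, counted reads per gene with Rsubread and removed genes under 1 CPM. Although the name of the deposited table refers to CPM, its values are whole-number counts whose totals differ between libraries, and they were analysed as raw counts. Gene annotation and strand setting were not given in the sources used here. Genes that reached 1 CPM in 4 or more libraries were kept (12494 of 12823), and groups were compared with the quasi-likelihood test of edgeR 4.0.16 in R 4.3.3 with TMM scaling, two-sided p-values and Benjamini-Hochberg adjustment over all tested genes (threshold 0.05). The common biological coefficient of variation was 0.118. The scripts were tested on simulated counts. Alternatives were limma 3.58.1 on log2(CPM + 1), DESeq2 1.42.0, other scalings and filters, a replicate block and leaving out each library. Replicates were compared by chi-square, and none were duplicates. Intervals cover the spread between libraries, and the limit of 3 counts covers counting error only.

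The members and lists were chosen with earlier results of these data known. Named genes were all members, the called genes of each pathway list (at most 5 per direction, by adjusted p), the 3 most abundant genes not called, and 2 genes most like each called member. The IKK subunits, Nfkbid, the called leukemia markers and the genes that overlap members on the opposite strand were named after their values were seen. Start and end coordinates of the members are from RefSeq. Their strands and the transcript lengths are from GENCODE M21 (GRCm38, the build of mm10), which gave a length for 92.9% of tested genes. The length of all exons joined was added as an alternative after the data were seen. Promoter windows are from RefSeq.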

Additional observations from a re-analysis of the deposited data

Results flagged for a closer look

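Nfkbie in aggressive AML replicate 2 stood apart within its group, at 9.31 CPM against 10.97 to 11.04 CPM in the other three. This was 1 of 20 combinations of member and group examined, and chance flags about 1 in 20. The value lies further from new AML than the others of its group do.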

How the results depend on the processing

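The calls of Nfkbia and Nfkb2 held in 15 of 15 alternatives each, with adjusted p between 0.00021 and 0.0208 for Nfkbia and between 0.00293 and 0.0407 for Nfkb2. Nfkbiz was called in 9 of 15, and its adjusted p was 0.0504 when libraries were scaled by their totals alone. In that setting 1 member was higher in place of 2. The number of members called lower was 2 in place of 1 with scaling by totals, with DESeq2 and with limma, since Nfkb1 was added. Leaving out each library in turn gave 1 to 2 members higher and 1 to 1 lower, and called 2 to 3 receptors and ligands (2 with all libraries), 2 to 5 kinases and adaptors (4), 0 to 2 other brakes (3) and 4 to 8 target genes (7). With the replicate number as a block, 1 of the other brakes was called. Same-numbered libraries did not deviate together in every pair (correlations 0.0967, -0.0399, -0.0654 and 0.204), and not every library correlated best with its own number, so the numbers were not taken to pair the samples, and the block called 2367 of all tested genes in place of 2296. The sign of Rel turned without new AML replicate 3 (-0.040), aggressive AML replicate 1 (-0.0053) and aggressive AML replicate 3 (-0.022), within a range of -0.040 to 0.153 over the libraries left out, and that of Tnfaip3 turned without aggressive AML replicate 3 (0.025, range -0.215 to 0.025). Neither was called in any alternative. Relb rested on the fewest reads of the members, 28 to 54 per library.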
